A study of Arabidopsis thaliana with 20 samples.

Results

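The arr1/10 double mutant of Arabidopsis carries T-DNA insertions in the genes of a pair of transcription factors, ARR1 and ARR10, and its roots were compared with wild-type (WT) roots. The comparison was chosen by the genotype labels alone and rests on 4 of the 20 arrays of the study, 2 of untreated arr1/10 and 2 of untreated WT. All plants were Col-0 seedlings aged 10 days, and roots were cut off near the hypocotyl. The alleles of the double mutant were arr1-3 and arr10-5, and it was received from another laboratory as a finished line, so each genotype stands for 1 line. The remaining arrays, also 2 per group, were untreated roots of the single mutants arr1, arr10, and arr12, of the double mutants arr1/12 and arr10/12, and of the triple mutant arr1/10/12, with the alleles arr1-3, arr10-5, and arr12-1. They also held WT roots given mock or 5 μM N6-benzyladenine, a cytokinin (CK), for 1 h. These arrays entered the same statistical fit, so the estimated spread and the number of calls rest on them as well. They otherwise serve as points of reference, in part through direct contrasts with arr1/10.

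In cytokinin signaling, receptor histidine kinases at the membrane pass a phosphate through phosphotransfer proteins to the response regulators in the nucleus. The type-B response regulators, among them ARR1, ARR10, and ARR12, are DNA-binding activators, and the type-A response regulators are among their direct targets and dampen the pathway in return. In roots the pathway is known for setting the size of the meristem and for shaping the vascular tissue, in part through the auxin repressor SHY2. An array of whole roots gives the average over all their cells, so fewer cells of a type and less RNA per cell cannot be told apart.

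Each array carried 43603 distinct probes, of which 34034 were tested because both arrays of some group had a signal well above background. Values are log2 signals after quantile normalization, and a fold change is a difference of group means on that scale. The share of probes well above background was 73.8% to 75.5% in WT and 73.2% to 75.7% in arr1/10. The replicate arrays correlated across probes with a Spearman's rho of 0.994 (WT) and 0.995 (arr1/10). Replicate 1 of every untreated group lay on slide 1 and replicate 2 on slide 2, and the fit held a term for the slide. On both slides WT lay in row 1 and arr1/10 in row 2, each in column 1, so that position on the slide and genotype cannot be told apart. The array files name no genes, and 2023 tested probes could be paired with a gene through the part of the study's gene list held here. Of its 2072 entries, 1997 had been listed by the study as down-regulated in some mutant. The other 75 were up-regulated genes of its Cluster 1, which the study took to be regulated by a single factor. Up-regulated genes that the study placed in other clusters were not held. Named genes are therefore mostly ones that the study picked on these samples for being low, and most up-regulated probes have no name here. Of 14 root markers, EXPA7, an expansin of root hairs, and APL, a regulator of phloem identity, were paired with a probe. EXPA7 had log2 signals of 13.09 and 13.55 in WT and 12.55 and 12.96 in arr1/10, and APL was between 6.47 and 6.89 on all 4 arrays. Of 16 markers of green tissue, LHCA3, LHB1B1, and PSAH1 were paired, with log2 fold changes of 0.42, 0.42, and 0.26 in arr1/10 and none called. Their part in the results below was not tested.

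The probes of both genes with an insertion were far lower in arr1/10. ARR10 (AT4G31920) had log2 signals of 13.59 and 13.25 in WT and 7.15 and 7.17 in arr1/10. Its log2 fold change was −6.26 (standard error 0.26, adjusted p = 3.38e-07). ARR1 (AT3G16857) had log2 signals of 11.99 and 12.01 in WT and 8.14 and 8.28 in arr1/10, which is 3.79 lower on average (log2 fold change −3.79, adjusted p = 2.79e-09). Both probes were still well above background on the arr1/10 arrays. ARR12 (AT2G25180), which is intact in this line, had log2 signals of 11.79 and 11.72 in WT and 12.00 and 11.93 in arr1/10. The arr1/10 arrays lay above the WT arrays by 0.21 on average (standard error 0.27, adjusted p = 0.63), so a change of ARR12 was not detected.

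**Figure D1:**
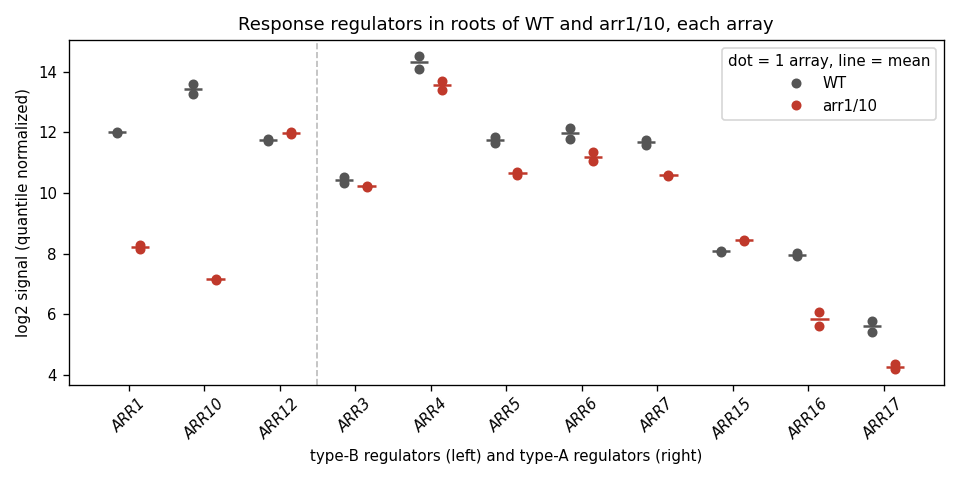
Log2 signal of the probes of 3 type-B and 8 type-A response regulators on each WT and arr1/10 array, with each dot 1 array and each line a group mean. ARR1 and ARR10 were lower by 3.79 and 6.26, ARR12 was not called, and 6 of the 8 type-A regulators were called down-regulated.

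Across the arrays, 1279 probes were up-regulated (3.76% of those tested) and 935 were down-regulated (2.75%) at a Benjamini-Hochberg adjusted p under 0.05, while 28.6% passed an unadjusted p under 0.05. Most of these changes were small. The median log2 fold change was 0.46 among the up-regulated and −0.53 among the down-regulated probes, and 97 of the former and 130 of the latter changed by 1 or more on the log2 scale. Both arr1/10 arrays lay beyond both WT arrays in 1267 up-regulated and 919 down-regulated probes, as they did, above and below, for 25.9% and 25% of all tested probes. The counts rested heavily on single arrays and on the slide term. Without WT replicate 2 the counts were 70 up-regulated and 48 down-regulated, without arr1/10 replicate 1 they were 97 and 51, and without arr1/10 replicate 2 they were 91 and 46, whereas without WT replicate 1 they were 999 and 666. Without the slide term 178 and 150 probes were called, all of them among the calls above, and a fit to the 4 arrays alone called 13 and 8. Among arrays outside the comparison, leaving out either arr1 array gave 506 and 362 calls and either CK array 538 and 379, whereas without either mock-treated array there were 1271 and 1070 and without either arr10 array 1206 and 794. Arrays of the other groups were not left out.

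**Figure D2:**
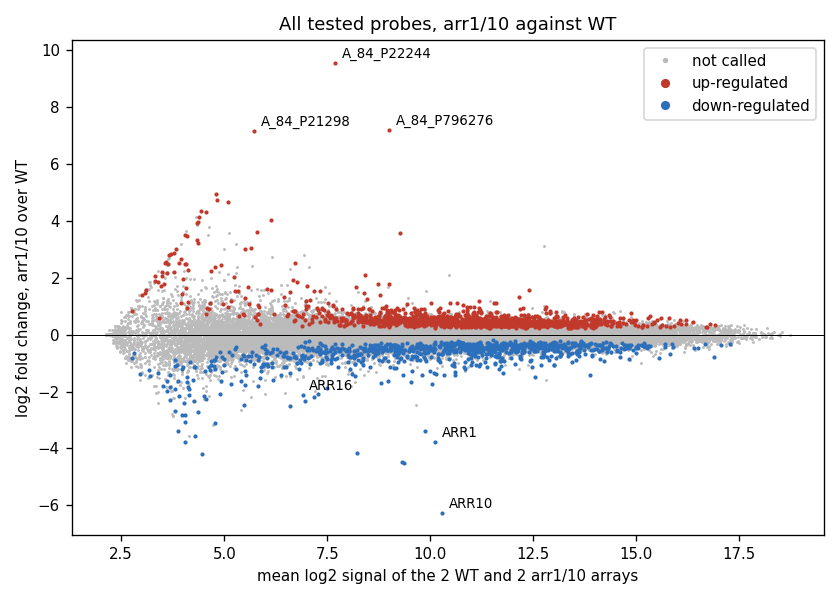
Log2 fold change of arr1/10 over WT against the mean log2 signal of the 4 arrays, with each dot 1 of the 34034 tested probes. Most of the 1279 up-regulated (red) and 935 down-regulated (blue) probes lay within 1 of the zero line, and ARR10, ARR1, and a few unnamed probes stood far from it.

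Most of the type-A response regulators measured were lower in arr1/10. Of 10 genes in the family, 8 were paired with a tested probe, 6 of them were down-regulated, and none was up-regulated, beside 19.6% down-regulated among all tested probes paired with a gene. Their median log2 fold change was −0.92, beside −0.39 over all paired genes and −0.01 over all probes. The 8 genes are known as fast targets of cytokinin, and all 8 rose after 1 h of CK in WT, by 1.81 to 5.87 on the log2 scale. They reached the gene list because the study found them low in some mutant of these samples, so their direction is not independent evidence.

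ARR5 (AT3G48100) had log2 signals of 11.64 and 11.83 in WT and 10.71 and 10.58 in arr1/10. It fell by 1.09 (standard error 0.11, adjusted p = 0.00101). ARR7 (AT1G19050) had 11.74 and 11.58 in WT and 10.59 and 10.57 in arr1/10, and it fell by 1.08 (standard error 0.13, adjusted p = 0.00215). For ARR5 and ARR7 the groups did not overlap, and the call held when any 1 of the 4 arrays was left out, with adjusted p up to 0.0165 and 0.0248. It also held against mock-treated WT, where the log2 fold changes were −0.82 and −1.27. The comparisons with mock-treated WT given here and below use the same arr1/10 arrays and were fitted without the slide term. In the fit with that term, mock-treated WT, on slides 3 and 4, differed from untreated WT at 8083 tested probes (23.7%, adjusted p under 0.05). For arr1/10 against untreated WT that share was 6.51%. Whether a call lost against mock-treated WT reflects arr1/10 or the difference between the WT groups was not tested.

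ARR16 (AT2G40670) showed the largest fall of the family, from log2 signals of 7.91 and 8.01 in WT to 5.62 and 6.06 in arr1/10. The log2 fold change was −2.12 (standard error 0.34, adjusted p = 0.0132), and it was not called without WT replicate 2 (adjusted p = 0.14) or without arr1/10 replicate 1 (adjusted p = 0.132). ARR4 (AT1G10470) had 14.09 and 14.52 in WT and 13.41 and 13.69 in arr1/10, a log2 fold change of −0.76 (adjusted p = 0.00893). The groups were apart, but the fall of ARR4 was called only with all 4 arrays or without WT replicate 1, since adjusted p was 0.11 without WT replicate 2, 0.0764 without arr1/10 replicate 1, and 0.0672 without arr1/10 replicate 2. ARR6 fell from 11.79 and 12.13 to 11.05 and 11.35 (adjusted p = 0.0338). ARR17 fell from 5.79 and 5.43 to 4.35 and 4.20 (adjusted p = 0.0374). Its signal in arr1/10 was not well above background, and it is given as at least 2.52-fold lower. Such values, here and below, are no strict limits. Signals as high as those of ARR17 were not well above background either, so a true fold can be smaller. The calls of ARR6 and ARR17 were lost whichever of the 4 arrays was left out, with adjusted p between 0.0635 and 0.262. ARR4, ARR6, and ARR17 were not called without the slide term (adjusted p = 0.069, 0.105, and 0.122).

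The other members of the family differed from this pattern in value. ARR3 had log2 signals of 10.32 and 10.52 in WT and 10.19 and 10.24 in arr1/10, a log2 fold change of −0.20 (adjusted p = 0.331). ARR15 had 8.06 and 8.09 in WT and 8.45 and 8.42 in arr1/10, a log2 fold change of 0.36 (adjusted p = 0.376). Both arr1/10 arrays of ARR15 were thus the higher ones, although ARR15 rose by 4.65 with CK. Against mock-treated WT the order changed, and among the called members ARR5 and ARR7 alone kept the call without the slide term. ARR4 was at −0.51 (adjusted p = 0.098, and 0.00764 with the slide term in the fit). ARR6 was then at 0.14 (adjusted p = 0.769), ARR16 at −0.29 (adjusted p = 0.673), and ARR17 at −0.55 (adjusted p = 0.476), and ARR3 and ARR15 were above the mock-treated roots by 0.77 and 1.27 (adjusted p = 0.00216 and 0.00421).

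Set against the other double mutants on the same row of the slides, the type-A genes did not move as 1 block. The double mutants lay in different columns. The arr1/12 line was isolated by the study's authors, whereas arr1/10 and arr10/12 were received from another laboratory. Relative to arr10/12, the log2 signal in arr1/10 was 0.93 lower for ARR5 (adjusted p = 0.00294) and 0.87 lower for ARR7 (adjusted p = 0.0116). Relative to arr1/12, it was higher for ARR15 by 1.93 (adjusted p = 0.00825), for ARR16 by 2.94 (adjusted p = 0.00347), and for ARR17 by 1.96 (adjusted p = 0.029). These direct contrasts were added after the values were seen and do not use the WT arrays, and they were not repeated with arrays left out. Over all probes they called only 93 against arr1/12 (0.273% of those tested) and 118 against arr10/12 (0.347%).

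Elsewhere in the pathway few genes passed the test. ASL9 (AT1G16530), a LOB-domain gene induced by cytokinin, had log2 signals of 11.19 and 11.40 in WT and 9.86 and 9.92 in arr1/10. It fell by 1.41 (standard error 0.15, adjusted p = 0.00105), the call held whichever of the 4 arrays was left out, and CK raised it by 2.14. The other 5 cytokinin-responsive genes that the study had singled out were ACS5, AT1G30260, NAC101, EXPA15, and MEE3, with log2 fold changes of −0.57 to −0.24 and adjusted p from 0.151 to 0.551. ACS5 encodes an enzyme of ethylene synthesis and EXPA15 a cell wall expansin. Of these 5, all but AT1G30260 (log2 value −0.04, adjusted p = 0.913) rose with CK.

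The receptor gene WOL had log2 signals of 10.71 and 10.60 in WT and 10.76 and 10.92 in arr1/10 (log2 fold change 0.18, adjusted p = 0.345). It was the only receptor of 3 with a paired probe. The cytokinin oxidases CKX3 and CKX5, which degrade the hormone, had log2 fold changes of −0.44 (adjusted p = 0.0895) and −0.38 (adjusted p = 0.222), and CK raised them by 3.42 and 2.73. No phosphotransfer protein, gene of cytokinin synthesis, or cytokinin response factor was paired with a probe, so these steps are not analysed here.

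Among auxin genes, 8 of 25 Aux/IAA repressors had a tested probe. All 8 had lower means in arr1/10, and 2 were down-regulated (25%, beside 19.6% of all paired genes). SHY2 (IAA3), a repressor that cytokinin acts through in the root meristem, had log2 signals of 11.09 and 11.11 in WT and 10.65 and 10.77 in arr1/10, and fell by 0.39 (standard error 0.10, adjusted p = 0.043). IAA5 had 7.81 and 8.25 in WT and 7.17 and 7.23 in arr1/10, and fell by 0.83 (adjusted p = 0.0298). SHY2 lost its call whichever of the 4 arrays was left out (adjusted p from 0.144 to 0.198) or without the slide term (adjusted p = 0.19). IAA5 was not called without WT replicate 2, arr1/10 replicate 1, or arr1/10 replicate 2 (adjusted p = 0.262, 0.186, and 0.138) or without the slide term (adjusted p = 0.0503). The other 6, IAA6, IAA8, IAA10, IAA13, IAA17, and IAA31, had log2 fold changes of −0.79 to −0.18 and were not called. PIN6, an auxin transporter, was at −0.10 (adjusted p = 0.853), and EIN3, the central transcription factor of ethylene signaling, at 0.21 (adjusted p = 0.113).

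**Figure D3:**
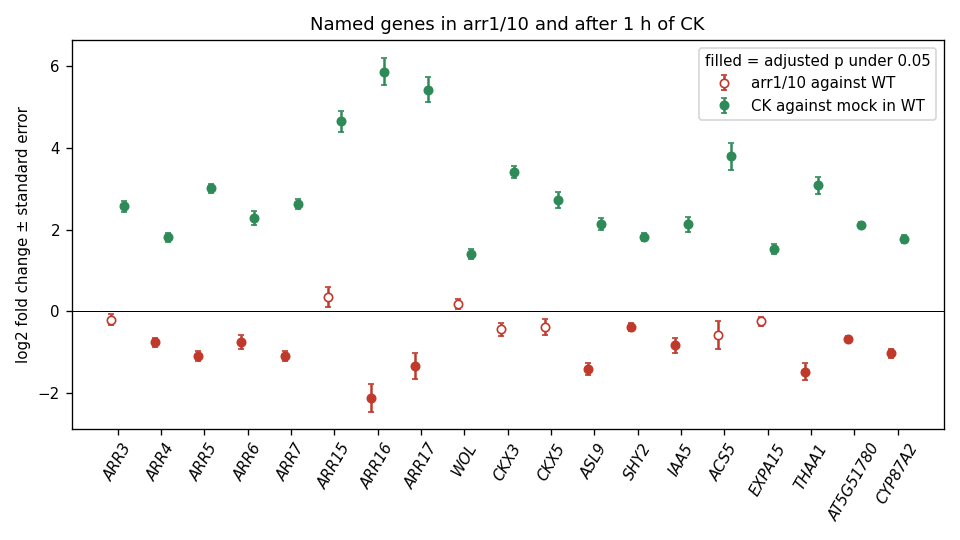
Log2 fold changes with standard errors of arr1/10 over WT (red) and of CK-treated over mock-treated WT (green) for 19 named genes, with filled dots for adjusted p under 0.05. ARR16 and ARR17 rose most with CK, by 5.87 and 5.43, and were called down-regulated in arr1/10, whereas ARR15 rose by 4.65 and was not called in arr1/10.

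The CK response was measured on 4 arrays that share none with the comparison of arr1/10 and WT. The mock-treated arrays lay on slides 3 and 4 and the CK-treated arrays on slides 5 and 6, so treatment and slide cannot be told apart. No slide term was fitted for these arrays. Their standard errors came from the spread over all 20 arrays and need not hold the differences between those slides. Of all tested probes, 2203 rose (6.47%) and 2197 fell (6.46%) after 1 h of CK. Of the 935 probes down-regulated in arr1/10, 227 rose with CK, which is 24.3% of the former and 10.3% of the latter list, and 69 fell with CK (7.38% and 3.14%). Of the 1279 probes up-regulated in arr1/10, 56 fell with CK (4.38%, and 2.55% of the probes that fell with CK) and 111 rose (8.68%, and 5.04% of those that rose). Among down-regulated probes the share induced by CK was thus above the background of 6.47%, while among up-regulated probes the share repressed by CK was below that of 6.46%. The shares that moved the same way, 7.38% and 8.68%, were above these backgrounds as well. Both comparisons used the same estimate of each probe's spread, which favors probes of small spread in both lists. The share over all probes does not allow for this, here or in the comparison with arr10 below. In separate fits to the 4 arrays of each comparison, 0 of the 8 down-regulated probes were CK-induced. The share of all probes called by that CK fit was not counted, so this 0 has no background to be read beside. Of the 150 probes also down-regulated without the slide term, 59 were CK-induced (39.3%). The number of shared probes fell from 227 when WT replicate 2, either arr1/10 array, or either CK array was left out. The number of down-regulated probes fell as well in each of these fits, so the smaller overlap is not a smaller share. These fits leave 1 array in a group, and the background share was not counted in them. The 100 probes most induced by CK had a median log2 fold change of −0.45 in arr1/10, with 18 down-regulated and none up-regulated, and −1.47 in arr1/10/12.

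Genes down-regulated in arr1/10 and induced by CK included several outside the signaling pathway. AT5G51780 and AT5G51790 encode bHLH transcription factors and are direct neighbors on chromosome 5 in the RefSeq annotation. AT5G51780 had log2 signals of 13.35 and 13.66 in WT and 12.72 and 12.93 in arr1/10, and fell by 0.68 (standard error 0.06, adjusted p = 0.000594). AT5G51790 had 9.80 and 10.12 in WT and 8.92 and 9.29 in arr1/10, and fell by 0.86 (adjusted p = 0.0193). CK raised the pair by 2.12 and 1.30. CYP87A2, a cytochrome P450, fell from 12.37 and 12.76 to 11.54 and 11.53 (log2 fold change −1.03, adjusted p = 0.00101) and rose by 1.77 with CK. The calls of AT5G51780 and CYP87A2 held whichever of the 4 arrays was left out, and that of AT5G51790 held in 1 of these 4 fits. Against mock-treated WT, CYP87A2 was lower by 1.35 (log2 fold change −1.35, adjusted p = 1.47e-05), while AT5G51780 had a log2 fold change of only −0.22 and was not called (adjusted p = 0.357, and 0.0363 with the slide term in the fit).

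The thalianol genes form a metabolic cluster on chromosome 5 that makes a root triterpene, and they were looked at after their values had been seen. THAA1 (AT5G47980), an acyltransferase gene of the cluster, had log2 signals of 13.10 and 13.45 in WT and 11.63 and 11.96 in arr1/10. It fell by 1.48 (standard error 0.21, adjusted p = 0.00856) and rose by 3.09 with CK. THAD fell by 0.62 (adjusted p = 0.0488, and from 0.067 to 0.332 with 1 of the 4 arrays left out), while THAH and THAS1, the thalianol synthase gene, had log2 fold changes of −0.50 (adjusted p = 0.124) and −0.47 (adjusted p = 0.1). All 4 rose with CK, by 0.93 to 3.09. Against mock-treated WT the log2 fold change of THAA1 was −0.06 (adjusted p = 0.921), and the call against untreated WT was lost without WT replicate 2 (adjusted p = 0.104) or arr1/10 replicate 1 (adjusted p = 0.0821).

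The largest falls after ARR10 were in part those of unnamed probes and of genes low in all mutant lines. The probe A_84_P511975 had log2 signals of 11.70 and 11.53 in WT and 7.14 and 7.07 in arr1/10, and fell by 4.51 (standard error 0.09, adjusted p = 5.58e-10). Its signal was between 6.67 and 6.86 on the arrays of arr1/12 and arr1/10/12 and between 11.32 and 11.98 on all other arrays, which is the pattern that the probe of ARR1 showed. SADHU3-2, a transposable element gene, fell from 11.57 and 11.53 to 7.50 and 6.64 (log2 fold change −4.48, adjusted p = 2.42e-05). AT3G28899, of unknown function, fell from 10.39 and 10.19 to 5.36 and 6.93 (log2 fold change −4.14, adjusted p = 0.00129), and AT5G24240 fell from 11.57 and 11.54 to 8.03 and 8.33 (log2 fold change −3.38, adjusted p = 0.000154). SADHU3-2, AT3G28899, and AT5G24240 were lower on each of the 14 mutant arrays than on each of the 6 WT arrays. Of the 15 largest falls, 6 had that pattern, and so did 25 of the 935 down-regulated probes, beside 0.217% of all tested probes. The down-regulated probes were chosen for arr1/10 below WT, which the pattern includes, so their higher share is in part built in.

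Other large falls ended at signals not well above background, so their folds are given as bounds, with the limit stated for ARR17. Relative to WT, LCR30, a gene for a small cysteine-rich protein, was at least 16.6-fold lower (adjusted p = 0.00326), AT5G24250 at least 10.9-fold lower (adjusted p = 4.04e-05), EXPB2, a beta-expansin gene, at least 8.51-fold lower (adjusted p = 0.00963), and LCR83 at least 7.93-fold lower (adjusted p = 0.0132). The unnamed probes A_84_P511413, A_84_P767684, and A_84_P798867 were at least 11.7-fold, 8.44-fold, and 6.59-fold lower. LCR30 had log2 signals of 5.93 and 7.14 on the untreated WT arrays and 2.40 and 2.34 on the mock-treated WT arrays, and LCR83 was likewise not called against mock-treated WT (adjusted p = 0.262). For LCR30 it was thus the untreated WT arrays that stood apart from the remaining arrays, mutant or not. The calls of LCR83 and A_84_P767684 were lost without WT replicate 2 (adjusted p = 0.0976 and 0.116), arr1/10 replicate 1 (0.117 and 0.088), or arr1/10 replicate 2 (0.0751 and 0.0702), while those of LCR30, AT5G24250, A_84_P511413, and A_84_P798867 held whichever array was left out. AT5G24250, in contrast to LCR30, was also lower against mock-treated WT, by 3.17 on the log2 scale.

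EXPB2 and its neighbor on chromosome 1, CYP702A1, were low together. EXPB2 had log2 signals of 6.18 and 6.46 in WT and 3.95 and 2.49 in arr1/10. CYP702A1 had 6.63 and 6.80 in WT and 4.98 and 4.84 in arr1/10, and fell by 1.80 (standard error 0.21, adjusted p = 0.00198). In both genes arr1/10 was also below arr10/12, by 3.32 (adjusted p = 0.00913) and 1.74 (adjusted p = 0.00282). The call of EXPB2 against WT was lost without WT replicate 2 (adjusted p = 0.116) or arr1/10 replicate 2 (adjusted p = 0.0772).

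Further down the ranking stood AT5G26250, annotated as a sugar transporter, at least 5.52-fold lower (adjusted p = 0.00248), AT3G46340, annotated as a leucine-rich repeat kinase, at least 5.00-fold lower (adjusted p = 0.000738), AT3G05770 at least 6.99-fold lower (adjusted p = 0.0244), and MRD1 (log2 fold change −2.50, adjusted p = 0.0214). The calls of AT5G26250 and AT3G46340 held whichever of the 4 arrays was left out. Against mock-treated WT, however, AT5G26250 was not called (log2 fold change −0.73, adjusted p = 0.137, beside −2.47 against untreated WT), and AT3G46340 was, with a log2 fold change of −1.25 (adjusted p = 0.00241). For AT3G05770 and MRD1 the log2 fold change was −4.81 and −4.41 against mock-treated WT. In the comparison with untreated WT, AT3G05770 was called without WT replicate 1 but not without any other array (adjusted p from 0.132 to 0.208), and MRD1 lost its call whichever array was left out (adjusted p from 0.058 to 0.13).

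Some genes of the seed were detected at a low level in WT roots and were lower still in arr1/10. They were singled out after their values were seen. The seed albumin gene SESA5 was not called (log2 fold change −3.17, adjusted p = 0.0933). OLEO1, an oleosin of oil bodies, had log2 signals of 6.07 and 5.80 in WT and 3.92 and 3.75 in arr1/10, at least 4.29-fold lower (adjusted p = 0.0335). BETA-TIP, a water channel of the storage vacuole, had 4.88 and 5.44 in WT and 2.71 and 2.22 in arr1/10, at least 5.85-fold lower (adjusted p = 0.026). ATPXG2, a caleosin, had 5.19 and 5.59 in WT and 2.53 and 2.59 in arr1/10, at least 7.11-fold lower (adjusted p = 0.0449). In arr1/10/12 the same probes were above WT by 5.63, 3.79, and 4.79 on the log2 scale, the opposite side of WT from arr1/10. Against mock-treated WT, OLEO1 and ATPXG2 were not called in arr1/10 (log2 fold changes −1.29 and −2.07, adjusted p = 0.0902 and 0.0753). BETA-TIP was called there (−1.75, adjusted p = 0.0453). The calls of OLEO1 and ATPXG2 were lost whichever of the 4 arrays was left out (adjusted p from 0.0791 to 0.282), and that of BETA-TIP was kept only without WT replicate 1 (adjusted p up to 0.219 otherwise).

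The largest rises belonged to probes that could not be paired with a gene. Of the 15 largest, none had a gene and 13 were not well above background in WT. The probe A_84_P796276 had log2 signals of 6.38 and 4.43 in WT and 12.50 and 12.67 in arr1/10, a rise of 7.18 on that scale (standard error 0.83, adjusted p = 0.0021). On the 16 arrays of the other groups it did not exceed 6.11, so its high signal was found in the double mutant alone. In the direct contrasts it was above arr1/12 by 8.86 (adjusted p = 0.00069) and above arr10/12 by 7.72 (adjusted p = 0.00124). The same pattern, with both arr1/10 arrays above each of the other 18 arrays, held for 10 of the 15 largest rises and for 84 of the 1279 up-regulated probes, beside 0.99% of all tested probes. Up-regulated probes were chosen for arr1/10 above WT, which the pattern includes, so a share above that of all probes is in part built in. Of the probes with this pattern, A_84_P763212 rose from 2.32 and 2.33 to 7.06 and 7.47 and was at least 29.4-fold higher (adjusted p = 3.12e-08). A_84_P769214, with 2.85 and 2.66 in WT and 8.60 and 6.22 in arr1/10, was at least 25.1-fold higher (adjusted p = 0.00119).

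Another set of probes was high in every mutant and not in WT. A_84_P22244 had log2 signals of 3.32 and 2.51 in WT and 12.40 and 12.52 in arr1/10, at least 747-fold higher (adjusted p = 1.93e-09). It lay between 11.60 and 12.57 on all 14 mutant arrays and did not exceed 3.32 on the 6 WT arrays. A_84_P21298, with 2.14 on both WT arrays and 9.19 and 9.41 in arr1/10, was at least 121-fold higher (adjusted p = 1.44e-09). A_84_P172991 rose from 7.35 and 7.66 to 11.11 and 11.00 (log2 fold change 3.55, adjusted p = 1.52e-07). A_84_P21298 and A_84_P172991 followed the same division between mutant and WT arrays. The calls of the 6 unnamed probes given here, from A_84_P796276 on, held whichever of the 4 arrays was left out. Among all tested probes 0.385% had every mutant array above every WT array, and among the 1279 up-regulated probes 33 did. The 1279 were chosen with the same arr1/10 and WT arrays, so the higher share is in part built in.

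**Figure D4:**
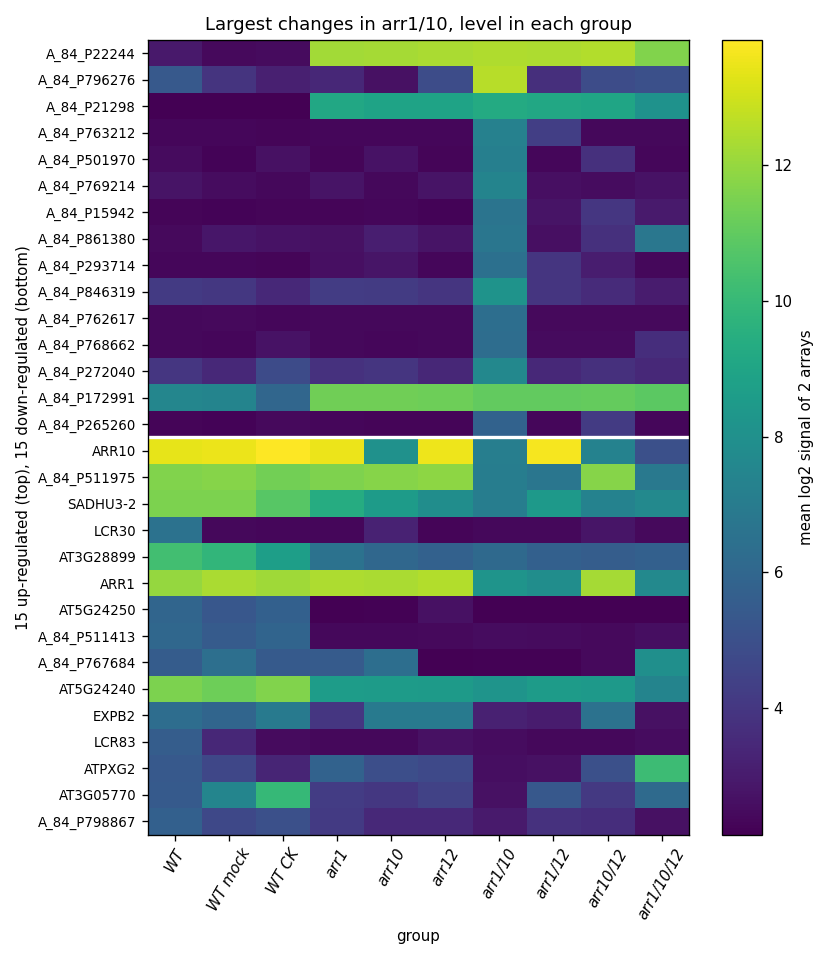
Mean log2 signal (color) of the 15 probes with the largest rise (top) and the 15 with the largest fall (bottom) in arr1/10, in each of the 10 groups. Of the rises, 10 were highest on both arr1/10 arrays and 3 were high in every mutant, and of the falls 6 were low in every mutant.

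Only 19 up-regulated probes had a gene name (0.939% of the paired probes), and 13 of them came from the entries that the study had listed as up-regulated. BOR5, a borate transporter gene, had log2 signals of 4.99 and 5.49 in WT and 7.08 and 6.60 in arr1/10, and rose by 1.61 (standard error 0.27, adjusted p = 0.0156). UMAMIT19, annotated as a nodulin-like transporter, rose by 1.502 (adjusted p = 0.0219), and SULTR1;3, a sulfate transporter of the phloem, by 1.04 (adjusted p = 0.0323). AT1G61390, annotated as an S-locus receptor kinase, rose from 6.29 and 6.33 to 7.09 and 7.19 (log2 fold change 0.83, adjusted p = 0.00442), and MYB305 rose by 0.79 (adjusted p = 0.00856). Against mock-treated WT, BOR5, UMAMIT19, SULTR1;3, and AT1G61390 were higher by 1.73, 1.74, 1.48, and 1.02 (adjusted p from 0.000626 to 0.00172).

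MYBL2, a repressor of anthocyanin synthesis, rose by 0.83 (adjusted p = 0.0188) and GH3.1, a member of an auxin-conjugating family, by 0.64 (adjusted p = 0.0302). For MYBL2 and GH3.1 the sign turned against mock-treated WT (−0.19 and −0.47). The remaining genes among the 15 largest, AT3G05640, AT2G28105, PHT4;1, CVL1, MUG1, AT2G25420, AT1G28260, and SKB1, rose by 0.41 to 0.66. Leaving out WT replicate 2 removed the calls of all 15 genes but BOR5 and MYBL2 (adjusted p from 0.0647 to 0.363), leaving out arr1/10 replicate 1 those of all but MYB305, and leaving out arr1/10 replicate 2 those of all but AT1G61390.

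Gene families were counted by words in the descriptions of the gene list, and each count has to be read beside 19.6% down-regulated and a median of −0.39 over all 2023 paired genes. Such words also matched some genes of other kinds, such as the seed albumin gene SESA5 among the lipid transfer proteins. The sizes and shares of the families are therefore approximate. Cell wall families stood somewhat below the median of all paired genes. Of 25 xyloglucan and pectin enzymes, 7 were down-regulated (28%) and the median log2 fold change was −0.60. Among the 7, the lowest log2 fold changes were those of AT5G20740 (−1.30), a pectin methylesterase inhibitor family gene, XTH13 (−0.96), a xyloglucan endotransglycosylase gene, AT1G23350 (−0.81), and AT5G38610 (−0.78). AT1G23200 (−1.01) and XTH26 (−0.995) had values as low without being called (adjusted p = 0.055 and 0.0784). Of 8 expansins, EXPB2 alone was down-regulated, with a median of −0.62 for the family. The root-hair expansin EXPA7 was at −0.56 (adjusted p = 0.1). Against mock-treated WT the medians were 0.81 for expansins and 0.07 for xyloglucan and pectin enzymes, beside 0.02 over all paired genes. Over all families they then ran from −0.08, for lipid transfer proteins and GDSL lipases, to the value of the expansins.

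Of 20 peroxidases, 4 were down-regulated (20%, median −0.53). AT2G38390 fell from 14.12 and 14.44 to 13.56 and 13.55 (log2 fold change −0.73, adjusted p = 0.0135), and AT5G64110, RHS18, a gene of root hairs, and APX5 fell by 1.11, 0.90, and 0.47. RHS18 and XTH13 were, however, above mock-treated WT by 1.32 and 1.33 (adjusted p = 0.00158 and 0.00141). Of 20 cytochromes P450, 6 were down-regulated (30%, median −0.46). They included CYP710A4 (−1.35), a sterol desaturase gene, and CYP81F4 (−0.68), an enzyme of indole glucosinolate synthesis, beside CYP702A1 and CYP87A2.

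Of 22 glutaredoxins and glutathione transferases, 6 were down-regulated (27.3%, median −0.36). The glutaredoxin gene AT2G30540 fell from 6.12 and 6.67 to 4.61 and 4.64 (log2 fold change −1.77, adjusted p = 0.00963), and GRXS13, AT4G15680, and AT3G28850 fell by 0.98, 0.81, and 0.63. Relative to arr1/12, arr1/10 was lower in AT2G30540 by 2.15 (adjusted p = 0.00566) and in AT4G15680 by 1.28 (adjusted p = 0.0308). Of 22 lipid transfer proteins and GDSL lipases, 6 were down-regulated (27.3%, median −0.48), among them AT2G31550 (−1.03), AT2G19060 (−0.999), AT4G12545 (−0.84), and AT5G46890 (−0.81). Of 20 MATE and oligopeptide transporters, 5 were down-regulated (25%, median −0.40), among them AT1G72140 (−0.82), AT1G33440 (−0.58), AT3G45700 (−0.44), and AT2G16905 (−0.43).

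In the larger regulatory families the share was at or below that of all paired genes. Of 48 transcription factors of the bHLH, MYB, WRKY, NAC, and AP2 families, 8 were down-regulated (16.7%, median −0.31) and MYB305 was up-regulated. The AP2 gene AT5G52020 fell by 0.79 beside the bHLH pair. Of 79 protein kinases, 9 were down-regulated (11.4%, median −0.31) and 2 up-regulated, and of those called and above background in arr1/10 AT2G19410 (−1.35) had the lowest value, although it was 1.29 above mock-treated WT (adjusted p = 0.0131), while AT3G52530 was at least 2.40-fold lower. Of 14 UDP-glucosyl transferases, UGT76D1 (−0.67) and UGT78D2 (−0.37), a flavonoid glucosyltransferase gene, were down-regulated. Of 14 F-box proteins AT1G23770 was at least 2.83-fold lower, of 18 heat shock proteins and chaperones AT2G38000 fell by 0.61, and of 10 CLAVATA3/ESR peptides CLE42, a peptide gene known for repressing xylem differentiation, fell by 0.62 (adjusted p = 0.0414). The medians of these 4 families were −0.28, −0.33, −0.22, and −0.36. Of the called family genes named here, CYP702A1, CYP87A2, AT5G51780, and the kinase gene AT3G46340 kept their call whichever of the 4 arrays was left out, and all others lost it without WT replicate 2 (adjusted p from 0.0647 to 0.364).

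**Figure D5:**
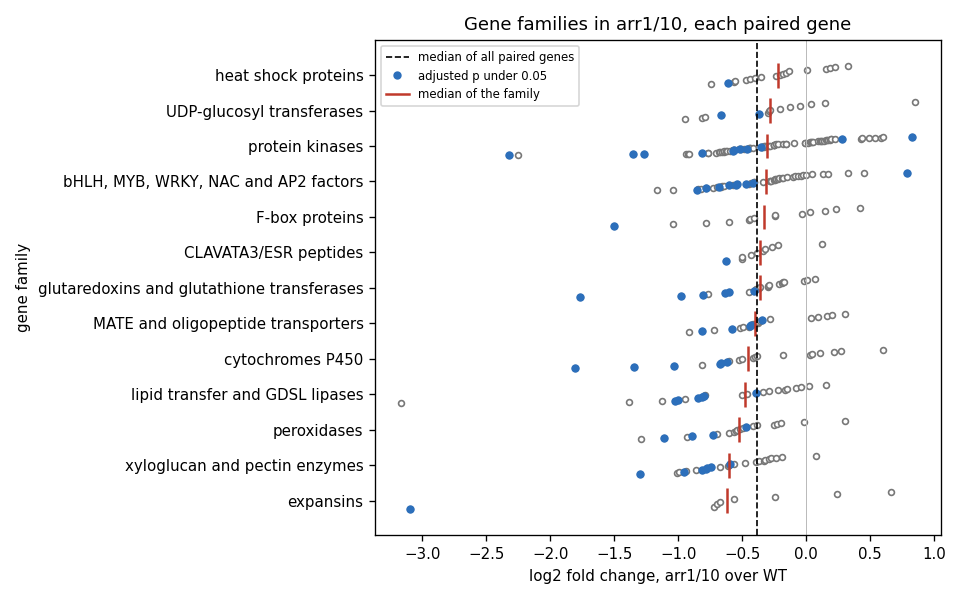
Log2 fold change of arr1/10 over WT for each tested gene (dot) of 13 families, with filled dots for adjusted p under 0.05, a red line for the median of the family and a dashed line for the median of all paired genes (−0.39). Expansins and xyloglucan and pectin enzymes had the lowest medians, −0.62 and −0.60, but were at 0.81 and 0.07 against mock-treated WT (not drawn).

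The direct comparison with arr10 sets arr1/10 beside a line mutated in ARR10 alone. It uses no WT array, though it shares the arr1/10 arrays with the comparison above. The arr10 line was isolated by the study's authors, whereas arr1/10 was received from another laboratory. On both slides arr10 lay in row 1 and column 3, and arr1/10 in row 2 and column 1. Line source and slide position can thus not be told apart from the loss of ARR1. Against arr10, 566 probes were up-regulated in arr1/10 (1.66% of those tested) and 494 were down-regulated (1.45%). Of the 494, 177 were induced by CK in WT (35.8%, beside 6.47% of all probes), and of the 566, 46 were repressed by CK (8.13%, beside 6.46%). ARR1 was 4.13 lower in arr1/10 than in arr10 (adjusted p = 2.2e-09). The log2 signal in arr1/10 was below arr10 by 0.99 for ARR5 (adjusted p = 0.00251), by 0.92 for ARR7 (adjusted p = 0.00783), by 0.82 for ARR4 (adjusted p = 0.00721), by 2.13 for ARR16 (adjusted p = 0.0175), and by 1.48 for ASL9 (adjusted p = 0.00116). The 4 thalianol genes were all lower than in arr10, by 0.77 to 1.62 (adjusted p from 0.00607 to 0.0431). ARR10 itself was at log2 signals of 7.56 and 8.57 on the arr10 arrays, beside 7.15 and 7.17 in arr1/10. Without arr10 replicate 1 the counts came to 93 and 39, without arr10 replicate 2 to 40 and 25, without arr1/10 replicate 1 to 91 and 34, and without arr1/10 replicate 2 to 96 and 30.

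Whether arr1/10 equals the sum of its single mutants was examined with the contrast of arr1/10 minus arr1 minus arr10 plus WT. It called 1402 probes above (4.12%) and 999 below the sum (2.94%). On the arrays labelled arr1, however, the probe of ARR1 had log2 signals of 12.27 and 12.52, above both WT arrays, so the sum is that of the labelled arrays. The 1402 probes had medians of −0.27 (arr1), −0.25 (arr10), and 0.13 (arr1/10) against WT, and 97 of them were called in arr1/10. The 999 had medians of 0.35, 0.33, and 0.01, and 162 were called. The probes A_84_P22244 and A_84_P21298, high in every mutant, were thus below the sum by 9.12 and 6.64. ARR1 (−4.52) and A_84_P511975 (−4.60), which were not low on the arr1 or arr10 arrays, lay below it as well. The slide term and single arrays decided these counts too, since they came to 36 and 18 without the slide term, and to between 14 and 226 above and 11 and 100 below with any 1 arr1, arr10, or arr1/10 array or WT replicate 1 left out.

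The other mutants were compared with the same WT arrays, so their values are given only side by side. The 935 probes down-regulated in arr1/10 had medians of −0.21 (arr1), −0.16 (arr10), and −0.23 (arr12) in the single mutants, of −0.49 in arr1/12 and −0.35 in arr10/12, and of −0.86 in the triple mutant. The 1279 up-regulated probes had 0.26, 0.25, 0.31, 0.42, 0.40, and 0.30 in the same order. Against mock-treated WT, which lay on other slides, the 935 had a median of −0.19 in arr1/10 and the 1279 of 0.19. Since the same arr1/10 arrays had chosen these probes, the signs of both medians are a description only.

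Some probes were lowest of all on the arr1/10 arrays. Both arr1/10 arrays were below each of the other 18 for 37 of the 935 down-regulated probes, beside 0.467% of all tested probes. The 935 were chosen for low arr1/10 arrays, so a share above that of all probes is in part built in. AT3G05770 and MRD1 were among the 37, but being lowest did not mean that other mutants were at the WT level. MRD1 was also down-regulated in arr10/12, with log2 signals of 5.74 and 5.69 there beside 5.21 and 5.48 in arr1/10 (log2 fold change against WT −2.13, adjusted p = 0.0418). In arr1 and arr10 MRD1 had log2 fold changes of −1.91 and −1.65 (adjusted p = 0.0684 and 0.128), and AT3G05770 had fitted values of −1.24 in arr1, −1.42 in arr10, and −1.40 in arr10/12, none of them called. Lowest on both arr1/10 arrays were also, named after their values were seen, PI, a floral homeotic gene, with log2 signals of 11.36 and 11.69 in WT and 10.45 and 10.48 in arr1/10 (adjusted p = 0.003), and AFP2, a gene of abscisic acid signaling (log2 fold change −0.62, adjusted p = 0.004). In arr1/10/12 PI and AFP2 had log2 fold changes of 0.93 and 0.21.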

How the data were processed

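Root RNA was labelled with Cy3 and hybridized to 1-colour Agilent arrays of 62976 spots. The authors deposited scanner files of Feature Extraction 10.7.1.1, whose intensity of each spot had its background subtracted and was not normalized between arrays. They also deposited a table of log2 values, quantile normalized without background subtraction, which served as an alternative and for naming.

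All 61657 spots other than controls were taken to log2 and quantile normalized across the 20 arrays, spots marked as outliers were left out, and spots of a probe were averaged. Tests came from the moderated linear models of limma 3.58.1 (R 4.3.3), with 1 coefficient per group and 1 slide term for the 16 untreated arrays (9 residual and 2.00 prior degrees of freedom, median standard error 0.13). The replicate numbers pair these arrays, since each number is 1 slide and 1 scan. The replicate deviations of all 28 pairs of groups correlated (r from 0.17 to 0.52, 0.45 for WT and arr1/10). Those of mock-treated WT, on slides 3 and 4, also correlated with WT (r = 0.30) and arr1/10 (0.27). Those of CK-treated WT did not (−0.10 and −0.07). The correlation is thus not particular to arrays that share a slide. The study calls its replicates biological, but the labels do not say whether they were separate cultures, so p-values measure the spread between samples. Calls needed an adjusted p (Benjamini-Hochberg, over all tested probes of the comparison) under 0.05, and the number of arrays limits the precision. At an unadjusted p under 0.05, 9727 probes passed (28.6%).

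Probes not well above background on either array of a group have only a bound. It was computed against the lowest signal well above background of each array or the probe's own if higher. Some probes missed that mark at signals above the lowest one, so a true fold can be smaller than the bound. For arr1/10 against WT, simulated data with 200 changed probes of 33707 at each size gave 30 of the 200 back at a log2 change of 0.5, 147 at 1, and 185 at 2, with 1, 6, and 9 false calls.

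Genes were named by matching the mutant-minus-WT means of the log2 table to the gene list of the study within 0.0005, for identity only. Each of 2072 genes matched exactly 1 spot, and 2052 were found in the RefSeq table of TAIR10.1, which gave current symbols. Named were ARR1, ARR10, and ARR12, the members of gene lists (receptors, phosphotransfer proteins, type-B and type-A regulators, oxidases, synthesis, response factors, responsive genes of the study, Aux/IAA, PIN, ethylene, green tissue, and root markers), the 15 largest changes per direction with separate groups, with and without a gene, and up to 4 called genes per family. The contrasts with arr1/12 and arr10/12 and the thalianol and seed genes were added after values were seen. Members and lists were chosen with earlier results of these data known. Alternatives were other scalings, background corrections, filters, blocks, sample sets, weights, cutoffs, tests, and controls. The normexp correction used the median spot and background signals. Python 3.11.15, numpy 2.4.6, pandas 2.3.3, and matplotlib 3.10.9 were used for tables and plots.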

Additional observations from a re-analysis of the deposited data

Results flagged for a closer look

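The named probes below differed between double mutants in a direct contrast of arr1/10 with arr1/12 or arr10/12 (limma, adjusted p under 0.05), all on the same row of both slides. Differences at the genes with an insertion follow the labels, with log2 values of arr1/10 minus arr1/12 of −6.52 for ARR10, of arr1/10 minus arr10/12 of −4.06 for ARR1, and of 6.85 and 6.45 in these contrasts for ARR12. Values of probes not well above background in 1 of the groups are fitted differences and no bounds. Against arr10/12, arr1/10 differed by −0.93 for ARR5, −0.87 for ARR7, −1.22 for ASL9, −1.44 for THAA1, −0.71 for AT2G38390, −0.77 for CYP87A2, −1.74 for CYP702A1, −3.32 for EXPB2, −3.59 for BETA-TIP, −1.82 for AT5G26250, −4.61 for A_84_P511975, and 0.69 for AT1G61390. Against arr1/12, it differed by 1.93 for ARR15, 2.94 for ARR16, 1.96 for ARR17, −3.09 for MRD1, −2.15 for AT2G30540, −1.28 for AT4G15680, and 4.86 for A_84_P501970. Unnamed probes differed from both, with arr1/12 first and arr10/12 second, by 8.86 and 7.72 (A_84_P796276), 2.96 and 4.90 (A_84_P763212), 4.82 and 4.90 (A_84_P769214), 4.20 and 4.57 (A_84_P846319), 4.14 and 3.84 (A_84_P272040), 3.91 and 3.92 (A_84_P762617), and 3.83 and 3.82 (A_84_P768662).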

How the results depend on the processing

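The 95 called probes among the 121 named ones gave 950 results under 10 alternatives, of which 536 kept call and sign, 401 lost the call at the same sign, and 13 changed sign. The 26 uncalled ones gave 260, of which 242 stayed uncalled at the same sign, 4 gained a call, and 14 changed sign, 4 of them with a call. Of these 27 changes of sign 25 came with mock-treated WT as the control, and the other 2, both uncalled, were PIN6 without WT replicate 2 (0.065) and APL without arr1/10 replicate 1 (−0.352). The cause of these changes was not tested. The 17 log2 values with changed sign, called with one control or the other, were 0.161 for AT1G23350, −0.187 for MYBL2, 0.214 for AT3G52530, 0.768 for ARR3, 1.288 for AT2G19410, 0.956 for EXPA15, −0.468 for GH3.1, 1.326 for XTH13, 1.318 for RHS18, 0.173 for THAD, 0.145 for ARR6, 1.341 for IAA31, 0.294 for UGT78D2, 0.087 for AT3G45700, 3.152 for ACS5, −0.307 for AT3G05640, and 0.217 for AT2G16905. Those not called with either control were 0.142 for CKX3, 0.430 for MEE3, −0.124 for EIN3, 0.189 for THAH, 0.445 for PIN6, 0.131 for THAS1, 0.272 for AT1G30260, and 0.660 for EXPA7. With that control 2074 probes were up-regulated and 2371 down-regulated, and 210 and 209 of these were among the 1279 and 935.

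Without the replicate block for the slide, 178 probes were up-regulated and 150 down-regulated. CK then raised 58 and lowered 6 of the down-regulated and raised 11 and lowered 7 of the up-regulated probes, and 124 and 80 were called against arr10 and 36 and 18 above and below the sum of the single mutants. The 16 untreated arrays alone gave 424 and 410 calls, and the 4 arrays alone gave 13 and 8. Of the latter, CK in its own fit of 4 arrays lowered 1 up-regulated probe and changed 0 others. The share of all probes called by that CK fit was not counted. Array weights gave 3439 and 3308 against WT, 4892 and 5003 against arr10, and 4389 and 4080 against the sum. The normexp correction gave 1898 and 1578, no filter on dim probes gave 732 and 489, and calls of at least 0.5 in size (log2) came to 529 and 513. With probes well above background on all arrays, 110 down-regulated probes were also lowered by CK, and 1339 and 1105 were called against arr10. The methods' t-test passed 2392 and 2021 probes unadjusted and 0 and 0 after Benjamini-Hochberg adjustment.

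Leaving out 1 WT or arr1/10 array gave 70 to 999 up-regulated and 46 to 666 down-regulated probes against WT, and 1 arr1, arr10, mock, or CK array 506 to 1271 and 362 to 1070. Leaving out 1 array of the contrast itself gave 40 to 96 and 25 to 39 against arr10, and 14 to 1400 above and 11 to 758 below the sum. With 1 WT, arr1/10, mock, or CK array left out, of the down-regulated probes 18 to 324 were raised and 2 to 104 lowered by CK, and of the up-regulated 7 to 171 and 4 to 67. In all 4 fits that left out a WT or arr1/10 array, 34 up-regulated and 33 down-regulated probes stayed called. The scaling to the 75th percentile (1335 and 1043), the deposited log2 table (1293 and 1177), and the block over all 20 arrays (946 and 694) moved these counts by less than 1.5 times. Signal near background limits the 54 up-regulated probes dim in WT and the 53 down-regulated probes dim in arr1/10 to bounds.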
